A study of Mus musculus with 30 samples.

Results

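Cngb3, Nr5a1, Nol4, Dnah12, Gm5960 and Gm12253 are 6 genes with almost no reads in control B16 melanomas and clear counts in B16 melanomas that secrete a type I interferon. They are 6 of the 39676 genes counted and 6 of the 15926 tested, those that averaged 10 or more counts. They were selected on earlier results from these same counts, which placed them among the genes with steep rises over the controls. The exact rule that took Dnah12 is not known. Their level in interferon tumors against control tumors, being the value they were chosen by, is given below as a description, with no test. Bulk RNA sequencing was done on 30 whole subcutaneous tumors taken from C57BL/6 mice 8 days after inoculation, 10 each of B16.GFP.gB.luc (B16-GFP, here GFP tumors), B16.IFNα4.gB.luc (B16-IFNA4, IFNα4 tumors) and B16.IFNα9.gB.luc (B16-IFNA9, IFNα9 tumors). The B16-F10 cells, a mouse melanoma line, had been transduced in sequence with retroviruses. The IFNα4 and IFNα9 lines carry the interferon and enhanced GFP under the viral long terminal repeat promoter, and the GFP line carries the vector without interferon. All 3 lines also carry membrane-bound glycoprotein B of herpes simplex virus with cyan fluorescent protein, and luciferase with puromycin resistance. Each tumor type comes from 1 engineered line, so a difference between lines and an effect of the interferon cannot be told apart. Whole tumors also hold host cells, which keep their interferon receptor.

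The 6 genes have little in common by function. Cngb3 encodes a subunit of the cyclic nucleotide-gated channel of cone photoreceptors. Nr5a1 encodes steroidogenic factor-1, a nuclear receptor that directs adrenal and gonadal development and the enzymes of steroid synthesis. Nol4 encodes a nucleolar protein found mainly in brain and testis. Dnah12 encodes a heavy chain of axonemal dynein, the motor of motile cilia and sperm tails. Gm5960 is annotated as an unprocessed pseudogene and lies in the Ly6 cluster, whose genes encode small membrane-anchored proteins of leukocytes and other cells, several of them induced by interferon. Gm12253 is annotated as protein coding, and no role is given here for it. As background, type I interferons act through one receptor on nearly all cells, and the induced genes, called interferon-stimulated genes (ISGs), include antiviral effectors such as the Ifit family.

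Tumors had totals of 14598517 to 18669856 counts in GFP, 15944776 to 19788383 in IFNα4 and 15312860 to 18528910 in IFNα9 tumors. Transcripts of the introduced genes matched the labels. Ifna4 had 81 to 188 counts in IFNα4 tumors and 0 in all others, and Ifna9 had 55 to 148 counts in IFNα9 tumors and 0 in all others. Of 10 melanocyte markers, 6 were analysed here (Tyr, Tyrp1, Slc45a2, Oca2, Trpm1 and Mitf). All 6 had counts in every tumor type and all 6 fell in both comparisons with GFP tumors, with summed levels of 7949 to 26077 counts per 1000000 counts (CPM) in GFP, 2424 to 3927 CPM in IFNα4 and 3676 to 9588 CPM in IFNα9 tumors. All 10 leukocyte markers rose in both, with summed levels of 483 to 1275, 1776 to 3658 and 1306 to 2503 CPM, and so did all 27 tested genes of a list of 30 ISGs. Over all genes tested, 31.3% were called higher and 34.1% lower in IFNα4 than in GFP tumors, and 26.9% higher and 28.9% lower in IFNα9 than in GFP tumors. Of 5 skeletal muscle markers none was called in IFNα4 and 3 fell in IFNα9 tumors, of 5 fibroblast markers 2 and 1 rose, and of 4 keratinocyte markers 2 rose in IFNα4 and 1 fell in IFNα9 tumors. The skeletal muscle markers summed to 2977 to 15032, 3559 to 12803 and 1422 to 10980 CPM, the fibroblast markers to 2856 to 12892, 7277 to 12814 and 7205 to 11998 CPM, and the keratinocyte markers to 713 to 5329, 4398 to 7337 and 1254 to 5980 CPM. With 1 tumor left out, the markers called in IFNα9 against GFP tumors were 5 of 5 for skeletal muscle without GFP tumor 7 or IFNα9 tumor 5, 0 to 3 for fibroblasts and 2 for keratinocytes without GFP tumor 5 or IFNα9 tumor 10. With so few genes a list, the muscle, fibroblast and keratinocyte counts were not tested against these shares. Melanocyte and leukocyte markers moved with tumor type, their part in the levels below was not tested, and in whole tumors fewer cells of a type and less RNA per cell cannot be told apart. GFP tumor 7 stood apart, with the highest melanocyte score (10.5, mean log2 CPM of the list) and the lowest leukocyte and ISG scores (5.27 and 4.08) of the GFP tumors.

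Gm5960 has close relatives whose reads it could share, so its sequence is shown before its counts. It lies at chr15:75071112-75074638 on the plus strand of GRCm38. Over the 406 bases of its annotated transcript, 373 of 400 aligned bases were identical in I830127L07Rik, 341 of 400 in Ly6i, 337 of 402 in Ly6a, 325 of 392 in Ly6c1 and 324 of 391 in Ly6c2. The 70 bases that open the Gm5960 transcript are given with the stretches of the nearest relative and of Ly6c2 that align to them without a gap. Capitals mark bases that differ from Gm5960, 3 in I830127L07Rik and 6 in Ly6c2. The sequences are from GENCODE M21.
Gm5960: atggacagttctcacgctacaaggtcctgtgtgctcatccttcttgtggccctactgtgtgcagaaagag
I830127L07Rik: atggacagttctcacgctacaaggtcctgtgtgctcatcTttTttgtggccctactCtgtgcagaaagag
Ly6c2: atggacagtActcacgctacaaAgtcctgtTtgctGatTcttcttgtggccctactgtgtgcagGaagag

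Reads were 50 bases long, and a read can be placed on 1 gene only where its sequence is not repeated. Of the 357 windows of 50 bases in Gm5960, 35 (9.80%) also occurred, base for base, in a transcript of another gene, each time I830127L07Rik. Cngb3, Nr5a1, Nol4 and Dnah12 shared no such window with any other annotated gene. Gm12253 shared 6 of 1307 (0.459%). The counts of Gm5960 are therefore partly uncertain. The other 5 shared few or no exact windows with annotated transcripts, but near matches and unannotated copies were not searched.

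Cngb3 (ENSMUSG00000056494.7, chr4:19280850-19510623, plus strand) was higher in IFNα4 than in IFNα9 tumors and nearly absent from GFP tumors. Its counts were 0, 0, 0, 2, 6, 0, 0, 1, 0 and 1 in GFP tumors 1 to 10. In IFNα4 tumors they ran from 85 to 170 with a median of 114, and in IFNα9 tumors from 33 to 66 with a median of 41. No IFNα9 tumor reached the lowest IFNα4 tumor, and no GFP tumor came near either. After scaling by the trimmed mean of M-values (TMM), the level was 0.0561 ± 0.104 CPM in GFP, 6.67 ± 1.52 CPM in IFNα4 and 2.51 ± 0.580 CPM in IFNα9 tumors (SD, n = 10 each). Summed over tumors and set against depth, the counts were 110 times those of GFP tumors in IFNα4 (95% interval 59.8 to 231) and 41.6 times in IFNα9 tumors (22.4 to 87.4). These intervals, from the exact binomial distribution of the summed counts, cover counting error only. GFP tumor 5 held 6 of the 10 GFP counts, and without it the ratios were 246 (95.6 to 903) and 92.6 (35.9 to 341). Ratios without 1 tumor, here and below, were added after the values had been seen. A processed pseudogene on the same strand within Cngb3, Gm11877, had its highest mean count in GFP tumors (13.6, against 6.5 in IFNα4 and 7.3 in IFNα9 tumors), the opposite order.

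Nr5a1 (ENSMUSG00000026751.14, chr2:38692656-38714542, minus strand) had the opposite order, with the most reads in IFNα9 tumors. In GFP tumors its counts ran from 0 to 6 with a median of 2, and 6 of the 10 tumors had a count. In IFNα4 tumors they ran from 37 to 100 with a median of 53.5, and in IFNα9 tumors from 107 to 212 with a median of 125.5. IFNα4 tumors 6 and 7, at 100 and 99 counts, came closest to the IFNα9 tumors, while the other 8 had at most 63. The level was 0.133 ± 0.145 CPM in GFP, 3.43 ± 1.32 CPM in IFNα4 and 7.61 ± 1.79 CPM in IFNα9 tumors (SD, n = 10 each), or 24.5 times (16.2 to 39.0) and 54.5 times (36.2 to 86.3) the GFP level by summed counts. Its antisense partner Nr5a1os had mean counts of 0, 0.2 and 0.4.

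Nol4 (ENSMUSG00000041923.15, chr18:22693181-23041653, minus strand) was seen in 2 of 10 GFP tumors, with 3 and 2 counts. IFNα4 tumors had 4 to 18 counts with a median of 5.5, and IFNα9 tumors had 15 to 53 with a median of 30.5. IFNα4 tumor 4, at 18 counts, was the single IFNα4 tumor inside the IFNα9 range, and IFNα9 tumor 6, at 15, the single IFNα9 tumor below it. The level was 0.0314 ± 0.0677 CPM, 0.464 ± 0.260 CPM and 1.86 ± 0.631 CPM in GFP, IFNα4 and IFNα9 tumors (SD, n = 10 each). By summed counts this was 15.5 times (6.37 to 48.9) and 60.7 times (25.7 to 188) the GFP level. Both ratios rest on those 5 counts. Without GFP tumor 6, which held 3 of them, they were 34.9 (9.37 to 293) and 137 (37.6 to 1136), and without GFP tumor 10, which held 2, they were 23.3 (7.70 to 115) and 91.4 (31.0 to 446).

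Dnah12 (ENSMUSG00000021879.12, chr14:26693274-26891703, plus strand) was highest in IFNα4 tumors and the only member whose IFNα9 and GFP tumors overlapped. GFP tumors had 0 to 2 counts, IFNα4 tumors 15 to 30 with a median of 19.5, and IFNα9 tumors 1 to 17 with a median of 11. IFNα9 tumors 1 and 5, with 2 and 1 counts, lay within the GFP range, and the other 8 had 9 or more. The level was 0.0464 ± 0.0452 CPM, 1.19 ± 0.295 CPM and 0.622 ± 0.342 CPM (SD, n = 10 each), or 28.0 times (13.4 to 70.6) and 14.5 times (6.79 to 36.9) the GFP level by summed counts. Among IFNα4 tumors the variance was 1.27 times that of counting alone, and among IFNα9 tumors it was 3.28 times.

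Gm5960 (ENSMUSG00000099775.1) had at most 3 counts in GFP tumors, and 5 of the 10 had none. IFNα4 tumors had 34 to 112 counts with a median of 77.5, and IFNα9 tumors 19 to 70 with a median of 44, so the interferon types overlapped. The level was 0.0436 ± 0.0550 CPM, 4.00 ± 1.52 CPM and 2.55 ± 0.975 CPM (SD, n = 10 each), and the summed counts were 94.9 times (45.8 to 237) and 59.7 times (28.7 to 149) the GFP level. Without GFP tumor 5, which held 3 of the 7 GFP counts, they were 148 times (57.5 to 544) and 93.0 times (36.1 to 343). Among IFNα4 tumors its variance was 9.86 times that of counting alone.

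Gm12253 (ENSMUSG00000058287.5, chr11:58432559-58441622, plus strand) had 0 counts in all 10 GFP tumors. A limit of 3 counts over the type, or 0.0182 CPM, was assumed for them. IFNα4 tumors had 10 to 45 counts with a median of 27, and IFNα9 tumors 5 to 16 with a median of 8.5. All interferon tumors were above all GFP tumors, and 5 of the IFNα9 tumors had a lower CPM than every IFNα4 tumor. The level was 1.51 ± 0.588 CPM in IFNα4 and 0.535 ± 0.177 CPM in IFNα9 tumors (SD, n = 10 each). Against these assumed 3 counts in GFP tumors, it was 84.0-fold higher in IFNα4 and 29.7-fold higher in IFNα9 tumors. These folds carry no interval and leave out the error of the interferon counts.

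**Figure D1:**
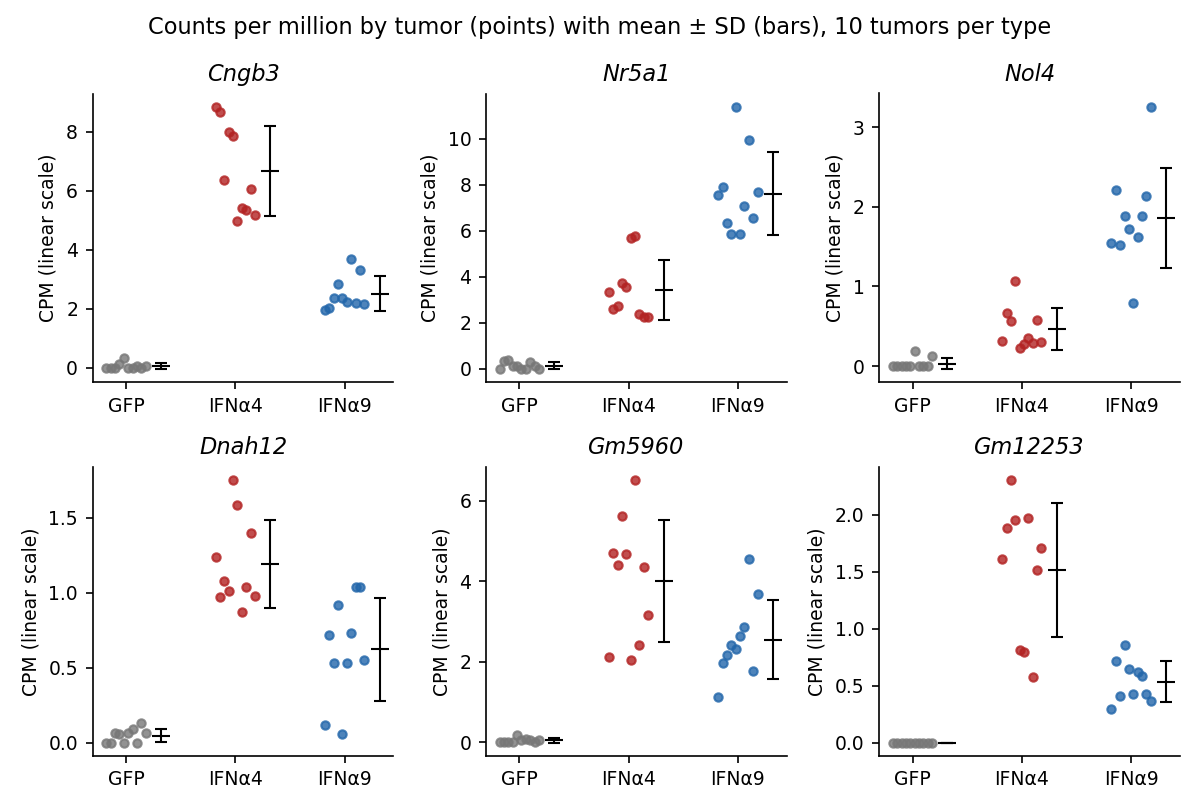
Levels in CPM (linear axis, TMM-scaled) of the 6 genes in each of the 30 tumors; points are tumors in the order 1 to 10 within GFP, IFNα4 and IFNα9, and bars give the mean ± SD. Cngb3, Dnah12, Gm5960 and Gm12253 have their highest mean in IFNα4 tumors (6.67, 1.19, 4.00 and 1.51 CPM), Nr5a1 and Nol4 in IFNα9 tumors (7.61 and 1.86 CPM), and IFNα9 tumors 1 and 5 lie at the GFP level for Dnah12.

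All 10 tumors of both interferon types lay above all 10 GFP tumors for Cngb3, Nr5a1, Nol4, Gm5960 and Gm12253, and for Dnah12 this held in IFNα4 tumors and in 8 of 10 IFNα9 tumors. Over all genes tested, the shares called higher were 31.3% and 26.9%, as above, and the tumors of the types did not overlap for 8.50% and 4.44%. Of the genes called in IFNα9 against GFP tumors in either direction, 48.2% were higher with TMM and 58.3% with library totals in its place. These shares stand beside the counts of members only as background, because the comparisons with GFP tumors chose the members. When rises over GFP tumors without overlap were ranked by fold change, Gm12253, Cngb3 and Gm5960 took ranks 2 to 4 in IFNα4 tumors, with Dnah12 at 22, Nr5a1 at 24 and Nol4 at 84 of 1353. In IFNα9 tumors Gm12253, Nr5a1, Gm5960 and Nol4 took ranks 2 to 5 of 707 and Cngb3 rank 6. A limit at rank 5 would thus have Nol4 just inside and Cngb3 just outside it in IFNα9 tumors, at fitted log2 fold changes of 5.62 and 5.23. All 6 genes passed the filter of 10 counts per tumor through their interferon tumors alone. With a mean of 10.7 counts over all tumors Dnah12 was just above it.

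The members order differently once transcript length is counted. Per kilobase of annotated exon, Gm5960 was the highest in IFNα4 tumors, at 9.85 ± 3.75 CPM per kb, and lay above Cngb3 in all 10 tumors. Cngb3 (1.42 ± 0.32), Gm12253 (1.12 ± 0.43) and Nr5a1 (0.81 ± 0.31 CPM per kb) followed within their spread, each above the next in 7 of 10 tumors. Dnah12 (0.0991 ± 0.0245) and Nol4 (0.0816 ± 0.0456 CPM per kb) were the lowest and again kept their order in 7 of 10. In IFNα9 tumors Gm5960 (6.28 ± 2.40) came before Nr5a1 (1.79 ± 0.42) and Nr5a1 before Cngb3 (0.534 ± 0.123 CPM per kb), each in all 10 tumors. Cngb3, Gm12253 (0.394 ± 0.131) and Nol4 (0.326 ± 0.111 CPM per kb) did not separate fully, and Dnah12 (0.0518 ± 0.0285 CPM per kb) was below Nol4 in all 10.

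The interferon tumor types, each from 1 line, were compared directly. Nr5a1 was higher in IFNα9 tumors and Cngb3 in IFNα4 tumors. By edgeR's quasi-likelihood test over all genes with Benjamini-Hochberg adjustment, 10.5% of all genes tested were called higher and 7.25% lower in IFNα9 than in IFNα4 tumors. Of the genes called, 59.3% were higher with TMM, 68.9% with library totals and 53.4% with DESeq2. Nr5a1 differed by a log2 fold change of 1.15 (SE 0.27, adjusted p = 0.00292), with all 10 IFNα9 tumors above every IFNα4 tumor. Cngb3 differed by -1.41 (SE 0.25, adjusted p = 0.000154), with all 10 IFNα9 tumors below every IFNα4 tumor. Both genes were chosen partly on these same tumors, so the p-values are not free of that choice. Over all genes tested, the tumors of the interferon types did not overlap for 2.08% with IFNα9 higher and 0.741% with IFNα9 lower. Marker lists differed between the same tumors. In IFNα9 against IFNα4 tumors 4 of 5 skeletal muscle markers were lower (median log2 fold change -0.96), 4 of 6 melanocyte markers were higher (0.56), and 2 of 10 leukocyte markers, 11 of 27 ISGs and 1 of 4 keratinocyte markers were lower (-0.37, -0.42 and -0.35). None of 5 fibroblast markers was called (-0.02). The leukocyte count is not firm, at 1 to 6 over the other settings and 1 to 5 with 1 tumor left out (5 without GFP tumor 7). The ISG count was 20 when GFP tumors stayed out of the fit and 19 without GFP tumor 7, and 2 melanocyte markers were called without IFNα9 tumor 10. Their part in the differences of the members was not tested.

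Nol4, Gm12253 and Dnah12 reached the mean of 10 counts only through the type in which they were high. Without the IFNα9 tumors Nol4 averaged 4.35 counts, and without the IFNα4 tumors Gm12253 averaged 4.65 and Dnah12 5.65 counts. To be tested they had to differ between the types, so their differences are given as a description. The log2 fold change was 1.98 (SE 0.33) for Nol4, with 9 of 10 IFNα9 tumors above every IFNα4 tumor, and -1.49 (SE 0.26) for Gm12253.

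Dnah12 differed by -0.93 (SE 0.32), with 7 of 10 IFNα9 tumors below every IFNα4 tumor. With 1 tumor left out its log2 fold change ran from -1.04 to -0.77. Gm5960 was not called, at -0.65 (SE 0.26, adjusted p = 0.0857), and without IFNα9 tumor 8 it was, at -0.78 (adjusted p = 0.0406). The comparison shares all its tumors with those that chose the genes. Nr5a1 and Nol4 were among the 5 steepest rises in IFNα9 tumors alone and Cngb3 in IFNα4 tumors alone. Their direction and any adjusted p here are therefore not independent of that choice. None of the 6 was among the 5 steepest rises from IFNα4 to IFNα9 tumors themselves.

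**Figure D2:**
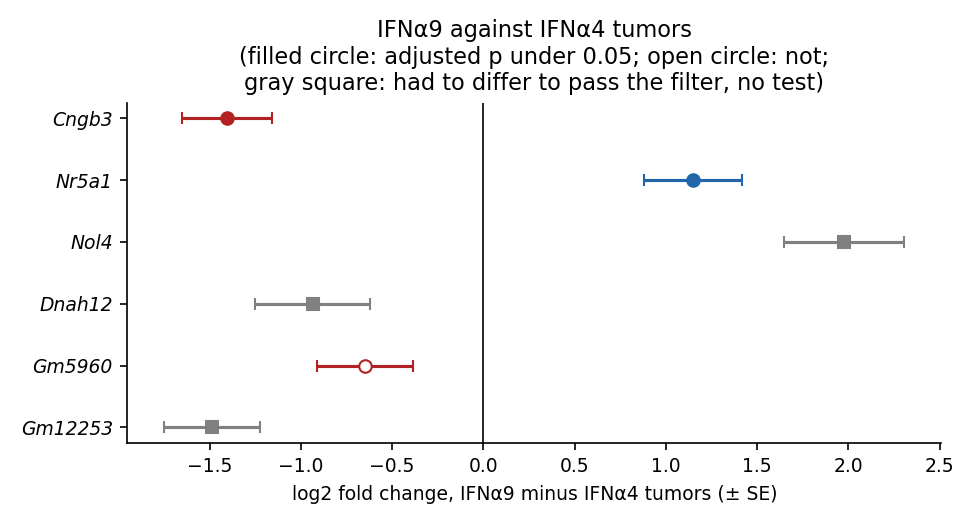
Fitted log2 fold change of each of the 6 genes in IFNα9 against IFNα4 tumors, 10 tumors each, with bars of ± 1 SE; the filled circles have an adjusted p under 0.05, the open circle does not, and gray squares are genes that had to differ to pass the filter and are shown without a test. The filled circles are Nr5a1 (1.15), right of 0, and Cngb3 (-1.41), left of it, the open circle is Gm5960 (-0.65), and the squares are Nol4 (1.98), Gm12253 (-1.49) and Dnah12 (-0.93). Nr5a1 and Cngb3 were chosen partly on these tumors, so their adjusted p is not free of that choice.

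The genes beside the members on the chromosome were examined next, taking the 3 nearest tested genes on either side of each. For these and for the lists below, the background is the share of all genes called higher or lower, given above. For Gm5960, 5 of 6 neighbors rose in both comparisons with GFP tumors and 1 fell. Ly6c2, which encodes a surface protein of monocytes and T cells, lies 33.5 kb away and rose by a log2 fold change of 3.24 (SE 0.18, adjusted p = 2.18e-15, edgeR) in IFNα4 and 2.35 (SE 0.17, adjusted p = 2.53e-12) in IFNα9 tumors. I830127L07Rik, at 56.7 kb, rose by 3.20 (SE 0.15) and 2.14 (SE 0.15), from 2.39 CPM in GFP tumors to 22.1 and 10.6 CPM. Ly6a, which encodes the stem cell antigen Sca-1, rose by 2.06 and 1.42, Ly6c1 by 2.03 and 1.40, and Gm28068 by 2.09 and 1.61. Gpihbp1, which encodes the capillary anchor of lipoprotein lipase and lies 522 kb away, fell by 1.57 and by 1.84 on the log2 scale. Ly6c1, Ly6a, Ly6c2 and I830127L07Rik were also lower in IFNα9 than in IFNα4 tumors (-0.64, -0.64, -0.89 and -1.06, adjusted p at most 0.00598).

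The counts of Gm5960 can also be set against those of its relatives. For every 1000 counts on I830127L07Rik, Ly6i, Ly6a, Ly6c1 and Ly6c2 together, Gm5960 had 0.0920 ± 0.112 in GFP, 1.37 ± 0.476 in IFNα4 and 1.48 ± 0.641 in IFNα9 tumors (SD, n = 10 each). Set against I830127L07Rik alone, the summed counts of Gm5960 were 1.76% in GFP, 18.3% in IFNα4 and 24.0% in IFNα9 tumors. Gm5960 was chosen for its rise over GFP tumors, which was steeper than that of these relatives, so a higher ratio in interferon than in GFP tumors follows from the choice and does not bear on shared reads. These ratios were added after the values had been seen.

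Among the neighbors of the other 5 members, none that rose did so by more than 1.12 on the log2 scale. Beside Cngb3, 3 of 6 rose in each comparison with GFP tumors and none fell by the same test, with log2 fold changes of -0.21 to 0.82 in IFNα4 and -0.13 to 0.92 in IFNα9 tumors. Its nearest neighbor Cpne3, a copine 8.6 kb away, rose by 0.27 and 0.32. The others that rose, Mmp16 and A530072M11Rik, lie 1161.7 and 3014.6 kb away. Rmdn1 and Wwp1, at 64.5 and 97.7 kb, were not called in either comparison. Beside Nr5a1, 1 rose and 3 fell in each (-1.09 to 0.42 and -0.78 to 1.12). The nearest of these, the nuclear receptor gene Nr6a1 at 8.8 kb, changed by 0.42 (adjusted p = 0.00748) and 0.24 (adjusted p = 0.127). In IFNα9 tumors the 1 that rose was Gm13588, 202.4 kb away. Between the interferon types, Nek6 and Gm13588 were higher in IFNα9 tumors and none was lower. They differed by 0.46 (adjusted p = 0.000971) and 0.87 (adjusted p = 0.0296, edgeR), a count of 2 that ran from 1 to 4 over the other settings. Nol4 has no tested gene within 710.7 kb. Of its 6 nearest, 2 rose and 2 fell in IFNα4 tumors, and 2 rose in IFNα9 tumors. The largest change was in the hair desmosome gene Dsg4, which fell by 3.38 (SE 1.08) in IFNα4 tumors. Beside Gm12253, 1 rose and 2 fell in IFNα4 and 2 rose and 2 fell in IFNα9 tumors, within -0.84 and 0.62. Among the neighbors of Dnah12, 1 rose and 1 fell in IFNα4 tumors, and 2 rose and 1 fell in IFNα9 tumors. In IFNα4 tumors 1 of these was left under 4 of 7 other settings and in 9 of 30 leave-one-out fits, and in IFNα9 tumors 1 was left without a filter. Asb14, 2.9 kb from Dnah12, was not called against GFP tumors (0.51, adjusted p = 0.0615, and -0.53, adjusted p = 0.0652) and was lower in IFNα9 than in IFNα4 tumors, by -1.04 (SE 0.24, adjusted p = 0.00311).

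**Figure D3:**
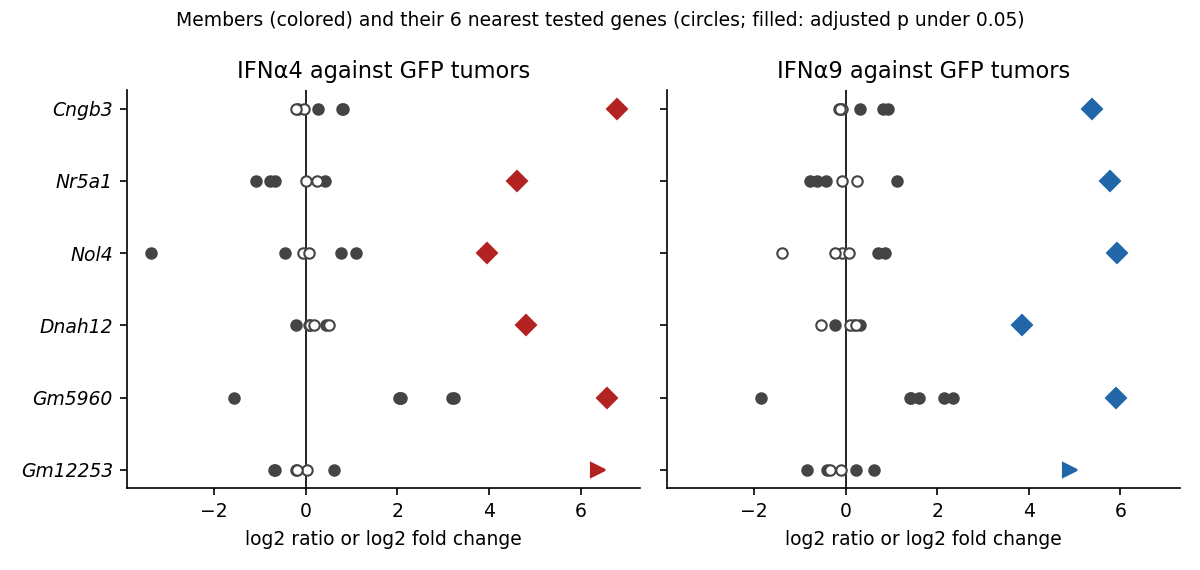
Changes against GFP tumors in IFNα4 (left) and IFNα9 tumors (right) on a log2 axis. Colored diamonds are the members' ratios of summed counts per depth, and the triangles for Gm12253 set its counts against 3 assumed GFP counts. Circles are the fitted log2 fold changes of the 6 nearest tested genes, filled where the adjusted p is under 0.05. The members sit at or above log2 of 14.5-fold, while their neighbors stay between -1.84 and 1.12 apart from Dsg4 (-3.38) and the 5 genes that rose beside Gm5960, which reach 3.24.

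Promoters were looked up in RefSeq sequences of GRCm38.p6 that run from 250 bases before to 50 after a gene's start, and 2 of the 6 genes, Gm12253 and Dnah12, were matched. The core of the interferon-stimulated response element (ISRE), searched on both strands as 2 blocks of GAAA with any 2 bases between them (TTTC blocks on the other strand), was present in 1131 of 32851 promoters (3.44%). These letters were not present in the promoters of Gm12253 or Dnah12. The Dnah12 start in RefSeq differs from the one in GENCODE. Gm12253 is shown because none of its reads was found in any GFP tumor, with the 250 bases before its start, chr11:58432309-58432558 on the plus strand. For comparison, 30 bases of the promoter of Ifit3b, the ISG whose pattern was most like that of Cngb3, are given from chr19:34607759-34607788 on the plus strand with the ISRE letters in capitals.
Gm12253: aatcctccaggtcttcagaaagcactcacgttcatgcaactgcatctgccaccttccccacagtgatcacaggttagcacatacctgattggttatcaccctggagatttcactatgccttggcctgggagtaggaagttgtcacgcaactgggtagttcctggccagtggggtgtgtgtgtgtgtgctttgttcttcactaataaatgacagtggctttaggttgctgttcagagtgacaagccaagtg
Ifit3b: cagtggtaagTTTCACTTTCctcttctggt

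For each member the tested genes with the most similar log2 CPM over the 30 tumors were listed. All points share the 3 tumor types, so these correlations mostly restate the order of the types and are given without a test. Cngb3 was closest to Ifit3b, Ifit3 and Ifit1bl2 (Pearson's r = 0.987, 0.987 and 0.985), ISGs of the Ifit cluster. Ifit3 stood at 81.5, 1545 and 891 CPM in GFP, IFNα4 and IFNα9 tumors. Gm5960 was closest to Rsad2, the antiviral enzyme viperin (0.963), to Cngb3 itself (0.963) and to Ifit1bl2 (0.963). Gm12253 was closest to A630012P03Rik (0.964), Ifit1bl1 (0.963) and Tdrd7 (0.961). A630012P03Rik was also nearly silent in GFP tumors, at 0.0906 CPM against 5.31 CPM in IFNα4 and 1.69 CPM in IFNα9 tumors.

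Nr5a1 and Nol4 had other companions. Nr5a1 was closest to Parp11, a mono-ADP-ribosyltransferase gene (0.947), Psme1, which encodes a subunit of the proteasome activator PA28 (0.943), and D630003M21Rik (0.942), and all 3 had their highest mean in IFNα9 tumors, as with Psme1 at 72.7, 172 and 207 CPM. Nol4 was closest to Pnma2, a paraneoplastic antigen gene (0.917), Pde5a, a cyclic GMP phosphodiesterase gene (0.915), and Mgarp (0.905). Pnma2 stood at 1.21, 2.14 and 5.97 CPM. Dnah12 was closest to the eosinophil chemokine gene Ccl11 (0.927) and to Gm6264 (0.921). Ccl11 stood at 59.9 CPM in GFP, 429 CPM in IFNα4 and 234 CPM in IFNα9 tumors. Among the members, Cngb3 was rank 2 of all genes for Gm5960 and rank 9 for Gm12253, while Nol4 was rank 2138 for Cngb3 (r = 0.692).

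Genes that work beside the members in their usual tissues moved in mixed directions. Of 30 phototransduction genes, 8 were tested. By the edgeR test 4 rose and 1 fell in IFNα4 tumors, and none rose and 1 fell in IFNα9 tumors, with medians of 0.53 and 0.09 on the log2 scale against 0.0092 and -0.0031 over all genes tested. Cngb1, the rod channel subunit, stood at 0.601 ± 0.326, 1.12 ± 0.406 and 0.718 ± 0.442 CPM in GFP, IFNα4 and IFNα9 tumors (SD, n = 10 each) and rose by 0.87 (SE 0.36, adjusted p = 0.0331) in IFNα4 tumors. Gngt2, the cone transducin gamma subunit, rose by 0.95 (SE 0.14, adjusted p = 6.22e-07) in the same tumors, Gnb3, the cone beta subunit, rose by 0.67 (SE 0.30, adjusted p = 0.0474), and the retinal guanylate cyclase gene Gucy2f fell by 1.12. In IFNα9 tumors Gngt2 changed by 0.16 (adjusted p = 0.323), and Crx, the photoreceptor transcription factor, had no count in GFP or IFNα4 tumors.

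Of 28 genes of steroid synthesis and gonadal or adrenal function, 13 were tested, and 5 rose and 5 fell in IFNα4 tumors while 5 rose and 4 fell in IFNα9 tumors by the same test. The largest rise was that of Gnrhr, the receptor for gonadotropin-releasing hormone, a known target of Nr5a1 in the pituitary. It went from 0.0990 ± 0.141 CPM in GFP to 0.964 ± 0.462 CPM in IFNα4 and 0.734 ± 0.375 CPM in IFNα9 tumors (SD, n = 10 each), by 3.16 (SE 0.49, adjusted p = 1.97e-06) and 2.76 (SE 0.49, adjusted p = 3.03e-05). Nr5a2, the closest relative of Nr5a1, moved the other way, by -1.48 (SE 0.41, adjusted p = 0.00216) and -1.66 (SE 0.41, adjusted p = 0.00116). The lipoprotein receptor gene Scarb1 fell by 1.21 and by 1.08. Amhr2, the receptor for anti-Müllerian hormone, changed by -1.05 (adjusted p = 0.00205) and -0.59 (adjusted p = 0.071). Star, which encodes the protein that carries cholesterol into mitochondria and is another known target of Nr5a1, is named after its values were seen. It rose by 0.73 in IFNα4 tumors (adjusted p = 2.87e-05), changed by -0.20 (adjusted p = 0.201) in IFNα9 tumors and was the only gene of the list called between the interferon types, lower in IFNα9 than in IFNα4 tumors by -0.93 (SE 0.14, adjusted p = 1.38e-05), against the direction of Nr5a1. Nr0b1, a nuclear receptor gene that acts with Nr5a1, the aldosterone synthase gene Cyp11b2 and Cga had no count in any tumor.

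Cilia genes were mixed as well. Of 38 genes of axonemal dynein and motile cilia, 19 were tested, and 6 rose and 5 fell in each comparison with GFP tumors by that test. Dnah7a, Dnah7b and Dnah7c, also heavy chains of the inner dynein arm, fell by 1.82, by 1.76 and by 1.63 on the log2 scale in IFNα4 tumors and by 1.26, by 1.37 and by 1.24 in IFNα9 tumors, and Ccdc40 fell by 1.07 and by 0.45. The Dnah7 genes are near copies. Of their windows of 50 bases, 4912 of 12718 in Dnah7a, 6021 of 20039 in Dnah7b and 5899 of 12598 in Dnah7c also occurred in another gene, so the split of reads between them is uncertain. Their spread in GFP tumors was wide, as with Dnah7b at 68.0 ± 59.4 CPM (SD, n = 10). Ccdc39, Cfap43 and Drc1, which act in the assembly or regulation of motile cilia, rose by 0.79, 0.74 and 0.72 in IFNα4 tumors and by 0.99, 0.74 and 0.74 in IFNα9 tumors. They are named after their values were seen.

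Of 13 neuronal genes, set beside Nol4, 8 were tested. In IFNα4 tumors 4 rose and 2 fell by the edgeR test, and in IFNα9 tumors 2 rose and 1 fell. The neurofilament genes Nefm and Nefl rose by 4.64 (SE 0.39, adjusted p = 2.26e-11) and 4.41 (SE 0.47, adjusted p = 2.39e-09) in IFNα4 tumors and were lower in IFNα9 than in IFNα4 tumors by -3.37 (SE 0.35) and -4.15 (SE 0.45), the reverse of Nol4. Nol4l, a paralog of Nol4 named here after its values were seen, ran the same way as Nol4 and was the only gene of the list called higher in IFNα9 than in IFNα4 tumors, by 0.70 (SE 0.11, adjusted p = 6.34e-05), and it changed by -0.08 (adjusted p = 0.522) in IFNα4 and 0.61 (adjusted p = 4.72e-05) in IFNα9 against GFP tumors. Nefl stood at 0.238 ± 0.199, 5.01 ± 2.24 and 0.278 ± 0.222 CPM in GFP, IFNα4 and IFNα9 tumors (SD, n = 10 each). Gap43, a growth cone gene, rose by 1.89 in IFNα4 tumors and changed by -0.24 (adjusted p = 0.468) in IFNα9 tumors, while Stmn2 fell by 0.87 in IFNα4 tumors.

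A different pattern was seen in the immunity-related GTPases (IRGs), interferon-induced genes that attack the vacuoles of pathogens and include several on the chromosome of Gm12253. All 10 tested of 12 rose in both comparisons with GFP tumors by the same test, with medians of 2.97 and 2.94. In IFNα9 against IFNα4 tumors 2 were higher, Tgtp1 by 1.14 (SE 0.31, adjusted p = 0.00871) and Tgtp2 by 1.07 (SE 0.30, adjusted p = 0.0119), and none was lower, whereas Gm12253 was lower. Tgtp1 and Tgtp2 are near copies, with 81.2% and 86.6% of their windows of 50 bases also present in another gene, so their counts are uncertain. Igtp rose by 2.97 and 3.60 and Gm12250 by 2.97 and 3.58 over GFP tumors.

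**Figure D4:**
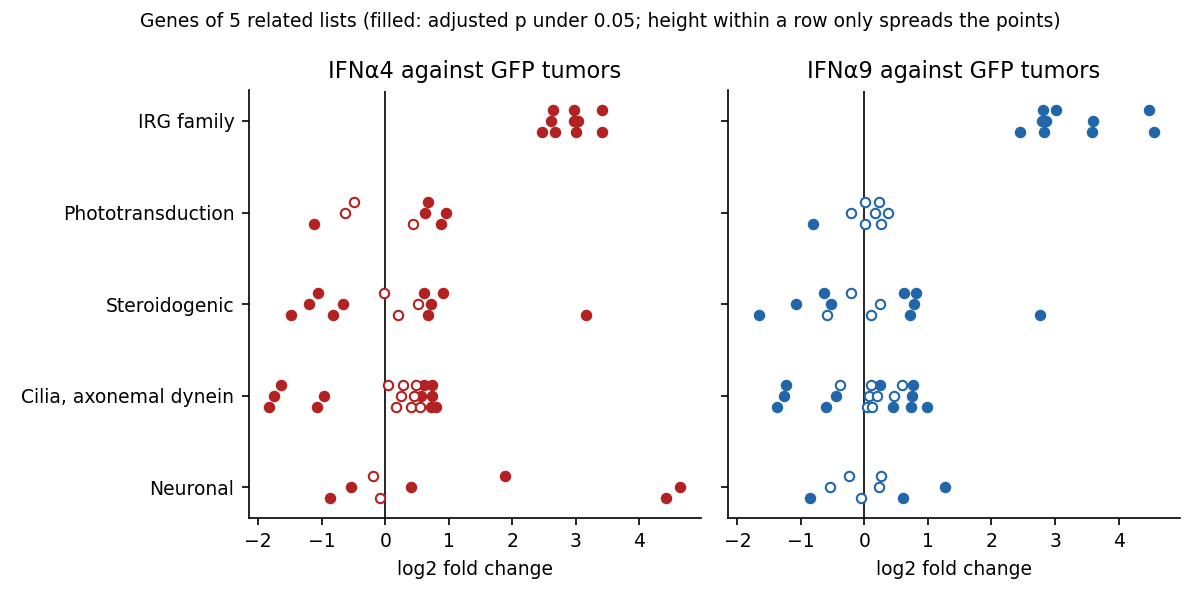
Fitted log2 fold changes of the tested genes of 5 lists in IFNα4 (left) and IFNα9 tumors (right) against GFP tumors, 10 tumors per type; each point is a gene, filled where the adjusted p is under 0.05. All 10 IRG genes lie above 2, while the phototransduction (8), steroidogenic (13), cilia (19) and neuronal genes (8) fall on both sides of 0.

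Within a tumor type, members could also vary with other measures. For the interferon tumors, 78 relations were computed in log2 CPM over 10 tumors each, of the members with the melanocyte, leukocyte and ISG scores, with the introduced interferon gene and with each other. One passed Benjamini-Hochberg adjustment by Pearson's r. In IFNα9 tumors Dnah12 rose with the ISG score (r = 0.855, permutation p = 0.00048, adjusted p = 0.0374; Spearman's rho = 0.879, permutation p = 0.00154, adjusted p = 0.0694). Tumors 1 and 5, with 2 and 1 Dnah12 counts, had the lowest ISG scores, 7.74 and 7.73, and tumor 5 also had the lowest leukocyte score, 6.89. In the same tumors Dnah12 had an r of 0.719 with the leukocyte score (permutation p = 0.0190, adjusted p = 0.493; rho = 0.600, adjusted p = 0.597; r = 0.548 without the 2 tumors farthest from the median score), and the part of leukocytes in the relation was not tested. Without these tumors, which are the farthest from the median score, r was 0.700 over 8 tumors (exact permutation p = 0.0439, not adjusted). In IFNα4 tumors r was -0.14 (permutation p = 0.698, adjusted p = 0.893).

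**Figure D5:**
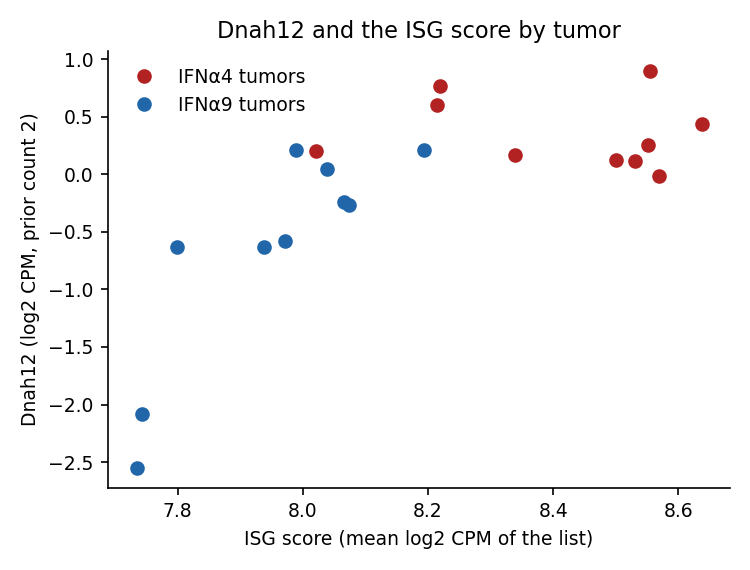
Dnah12 (log2 CPM with a prior count of 2) against the ISG score (mean log2 CPM of the ISG list) in the 10 IFNα4 and 10 IFNα9 tumors, 1 point per tumor. The IFNα9 tumors with scores of 7.74 and 7.73 have the lowest Dnah12 values, and r is 0.855 over the IFNα9 tumors and -0.14 over the IFNα4 tumors.

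Gm5960 had the next strongest relation, with the melanocyte score in IFNα4 tumors (r = 0.833, permutation p = 0.00517, adjusted p = 0.202; rho = 0.879, adjusted p = 0.0694; r = 0.711 without the 2 tumors farthest from the median score). Nol4 had an r of 0.660 with the melanocyte score in IFNα4 and 0.692 in IFNα9 tumors, both with an adjusted p of 0.531 by permutation. Neither gene's relation passed the adjustment. Among GFP tumors, tumor 5 had the highest ISG score (6.10) and also the most Cngb3 (6) and Gm5960 counts (3).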

How the data were processed

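Whole tumors of 3 types, 10 of each, were profiled by bulk RNA sequencing with stranded libraries and single-end reads of 50 bases. The authors deposited raw counts per gene and tumor, without normalization. According to the methods and the submitters' processing notes, reads were checked with FastQC 0.11.3, aligned with HISAT2 2.0.4 to a genome named mm11 in the methods and mm10 in the notes, and counted by gene. The annotation release, the strand setting and the handling of reads with several placements are not given in the sources used here. The labels give each tumor's type and number but do not say that tumors came from separate mice, so p-values measure the spread between these samples.

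Of 39676 identifiers, 39495 were found in GENCODE M21 (GRCm38), which gave symbols and coordinates, 36719 of them in the same version. Genes averaging 10 or more counts were tested in R 4.3.3 with edgeR 4.0.16, in 1 quasi-likelihood fit of all 30 tumors with TMM scaling, at an adjusted p under 0.05 (Benjamini-Hochberg). Log2 CPM used a prior count of 2. Scores are the mean log2 CPM of a list. Correlations were tested with 100000 permutations, two-sided. The fit was tested on simulated data. The closest pair of tumors within a type differed by a chi-square of 14.1 per gene over 11436 genes, so each tumor counted as 1 replicate. The members and all lists were chosen with earlier results of these data known. The naming rule took the members, the 3 most correlated and the 3 nearest tested genes on either side of each, and at most 4 genes of each related list with the largest called change. Neighbors not named are given as counts and ranges, and 1 gene the rule takes is not reported here. Named outside the rule are marker genes, genes overlapping a member or without counts, and those marked as named after their values were seen. Alternatives were DESeq2's size factors, library totals, DESeq2 1.42.0, filterByExpr, no filter, only the types compared, a replicate block and each tumor left out, the last also for the ratios over GFP tumors. Plots used Python 3.11.15 with matplotlib 3.10.9.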

Additional observations from a re-analysis of the deposited data

Results flagged for a closer look

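The rise over GFP tumors differed between the interferon types for Cngb3 and Nr5a1 by edgeR's test of IFNα9 against IFNα4 tumors (adjusted p under 0.05). Nol4, Dnah12 and Gm12253 are listed beside them as a description. The log2 difference was -1.41 for Cngb3, 1.15 for Nr5a1, 1.98 for Nol4, -0.93 for Dnah12 and -1.49 for Gm12253, with IFNα9 minus IFNα4 as the direction. Over all genes tested, 10.5% were called higher and 7.25% lower in that comparison. The rise over GFP tumors is the value the genes were chosen by, and Nr5a1 and Nol4 were among the 5 steepest rises in IFNα9 tumors alone and Cngb3 in IFNα4 tumors alone, so these differences follow in part from the choice. Nol4, Dnah12 and Gm12253 also averaged 10 counts only through the type in which they were high, so they had to differ and their values are a description.

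Single tumors lay far from the other 9 of their type in 3 of 26 groups of values searched, where Dixon's test at the 95% level would mark about 1 in 20 by chance. Cngb3 in GFP tumor 5 stood at 0.330 CPM, against 0.112 CPM in the next highest GFP tumor. Nol4 in IFNα4 tumor 4 stood at 1.07 CPM, with the next highest at 0.663 CPM. The melanocyte score of GFP tumor 7 was 10.5, with the next highest at 9.57.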

How the results depend on the processing

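For IFNα9 against IFNα4 tumors the direction of all 6 genes held under all 7 alternatives and all 30 fits without 1 tumor. Cngb3 (-1.48 to -1.35) and Nr5a1 (1.09 to 1.26) stayed called throughout, these ranges being those with 1 tumor left out. These fits reuse the tumors that chose the genes, so the calls are not free of that choice. Nol4 (1.85 to 2.19), Gm12253 (-1.58 to -1.39) and Dnah12 (-1.04 to -0.77) had to differ to be tested, so no call is read from them. Without a filter Dnah12 was at -0.94 and was not called (adjusted p = 0.0792, edgeR). Gm5960 became called with DESeq2 (-0.67, adjusted p = 0.0395), with only the types compared (-0.65, adjusted p = 0.0449) and in 1 leave-one-out fit (-0.78 to -0.54 over all). The count of genes called in that comparison was 2833 and rose to 4332 with only the types compared, where GFP tumors no longer entered the spread. Leaving out 1 tumor gave 2106 to 3801. Against GFP tumors the counts were 10412 (10022 to 11856 over the alternatives) in IFNα4 and 8876 (8041 to 9702) in IFNα9 tumors. Replicate numbers are shared by the types but did not pair the tumors, since the correlation of deviations was over 0.1 for 4 of 30 same-numbered pairs (-0.27 to 0.30). With the replicate block the counts were 10249, 8626 and 2538, and the calls of Cngb3, Nr5a1 and Gm5960 did not change. Mean levels of the members by library totals all moved by less than 1 SD, and Dnah12 with the ISG score stayed the 1 relation called with a prior count of 0.5 or library totals. Counts called in the lists moved by over 1.5 times in 43 of 1221 repeats and in the neighbors in 24 of 666. Without GFP tumor 7 the IRG genes called between the interferon types went from 2 to 4, the phototransduction genes called in IFNα4 tumors went from 5 to 3 without GFP tumor 10 or IFNα4 tumor 7 or 8, and the neighbors of Dnah12 called in IFNα4 tumors from 2 to 1 in 9 leave-one-out fits and with DESeq2 size factors, no filter, only the types compared or the replicate block. With only the types compared, IRG genes called between the interferon types were 5, ISGs 20, leukocyte markers 6 and neighbors of Nr5a1 4 (from 2). Leukocyte markers called there were 4 with DESeq2 and 1 with the replicate block (from 2). Without a filter the phototransduction genes called in IFNα4 tumors were 3 and the neuronal genes called in IFNα9 tumors 5 (from 3). The cause was not tested. With at most 6 counts in a GFP tumor for any member, depth limits the ratios over GFP tumors. Leaving out 1 tumor, a choice made after seeing the data, moved those of Cngb3, Nol4 and Gm5960 by over 1.5 times, as given above.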
